A study of Mus musculus with 13 samples.

Results

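The genes described here encode 8 carriers, or carrier subunits, that take amino acids and short peptides across the membranes of the absorptive cells of the small intestine. They were chosen by symbol (Slc6a19, Slc15a1, Slc7a9, Slc3a1, Slc7a7, Slc7a8, Slc3a2 and Slc1a1) from the 21868 symbols of the count table, and all 8 were among the 14300 genes that passed the filter on low counts. The 13 libraries came from jejunal epithelial cells of mice, sorted as EpCAM+ cells without CD45, CD11b, CD3 or B220, and their polyadenylated RNA was sequenced. Of the feeding groups, BSF (2 libraries) was fed at ZT16-ZT24, LSF (3 libraries) at ZT12-ZT16 and again at ZT20-ZT24, and DSF (2 libraries) at ZT12-ZT20, each for 2 weeks, where ZT counts hours from lights on. The groups con (3 libraries) and BSF_C (3 libraries) were the control and the group labelled as skipping breakfast combined with control, and their feeding hours are not given in the sources used here. Strain, age, sex and the hour of sampling are not given there either, nor whether a library came from 1 animal or from several. The labels call the libraries of a group biological replicates. The p-values of single genes set a difference against the spread between such libraries, estimated over the 5 groups together.

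Protein is cut to short peptides and free amino acids at the brush border, the microvillus membrane that faces the gut lumen. Carriers of that apical membrane use sodium, protons or exchange to bring them into the cell, and a second set in the basolateral membrane passes them on to the blood. Several of these carriers work as pairs, a light chain that forms the transport path and a heavy chain that takes it to the membrane. The apical set here is Slc6a19 (B0AT1, neutral amino acids with sodium, mutated in Hartnup disorder), Slc15a1 (PEPT1, short peptides with protons), the light chain Slc7a9 with its heavy chain Slc3a1 (together the exchanger for cystine and dibasic amino acids that is defective in cystinuria) and Slc1a1 (EAAT3, glutamate and aspartate). The basolateral set is the light chains Slc7a7 (mutated in lysinuric protein intolerance) and Slc7a8 (LAT2) with their shared heavy chain Slc3a2 (4F2hc).

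The 250 bases before the RefSeq gene start are shown for Slc6a19 and Slc15a1, whose levels moved together across the 5 groups, and for Slc7a9 and Slc3a1, subunits of 1 carrier whose levels did not. The windows are from GRCm38.p6 at chr13:73692637-73692886, chr14:121505255-121505504, chr7:35448842-35449091 and chr17:85028097-85028346, the first pair on the minus strand and the second on the plus strand. RefSeq and GENCODE do not place every start alike: the Slc6a19 window lies inside the GENCODE gene given below, and that of Slc7a9 begins just inside it, so these windows precede the RefSeq start and not the outermost GENCODE one. Each is printed 5′ to 3′ in the direction of the gene, and capitals mark matches to the motifs searched.
Slc6a19: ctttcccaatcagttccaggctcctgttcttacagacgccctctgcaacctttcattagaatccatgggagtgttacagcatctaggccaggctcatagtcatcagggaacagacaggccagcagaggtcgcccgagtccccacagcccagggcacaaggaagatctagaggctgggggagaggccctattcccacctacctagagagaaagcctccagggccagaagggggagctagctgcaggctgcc
Slc15a1: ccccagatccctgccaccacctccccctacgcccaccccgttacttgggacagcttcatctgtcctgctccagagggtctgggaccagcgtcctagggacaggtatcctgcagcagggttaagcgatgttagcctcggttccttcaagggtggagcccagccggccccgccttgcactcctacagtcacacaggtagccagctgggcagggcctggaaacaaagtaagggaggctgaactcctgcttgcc
Slc7a9: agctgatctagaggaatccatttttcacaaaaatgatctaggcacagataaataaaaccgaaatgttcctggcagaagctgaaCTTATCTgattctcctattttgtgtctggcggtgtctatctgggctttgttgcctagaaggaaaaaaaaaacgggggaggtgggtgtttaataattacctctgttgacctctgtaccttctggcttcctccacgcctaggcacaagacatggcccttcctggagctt
Slc3a1: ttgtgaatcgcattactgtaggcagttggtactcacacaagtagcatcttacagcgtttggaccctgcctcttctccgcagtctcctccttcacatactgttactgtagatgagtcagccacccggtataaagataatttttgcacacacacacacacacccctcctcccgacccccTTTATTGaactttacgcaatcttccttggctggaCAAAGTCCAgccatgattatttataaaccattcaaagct
Both strands were searched for 9 motifs. For factors of the intestinal epithelium these were HNF4 (CAAAGTCCA), HNF1 (GTTAATNATTAAC), the caudal homeobox motif CDX (TTTAT, any base, then G) and AGATAAG, the motif of the zinc finger factors called GATA. The general promoter motif SP1 (GGGCGG), the E-box of the core clock (CACGTG), the D-box of the clock output factors (TTATGNAA), the amino acid response motif ATF4 (TGATGNAA) and the nuclear receptor repeat DR1 (AGGTCANAGGTCA) were added, and matches to different motifs did not overlap in the windows of these 8 genes. The Slc3a1 window held the HNF4 letters 39 bases before the start, present in 0.381% of 27025 promoter windows of this length, and the CDX letters 73 bases before it, present in 10.2%. The Slc7a9 window held the GATA letters on the opposite strand 167 bases before the start, present in 2.78% of windows. None of these letters occurred in the Slc6a19 or Slc15a1 window. Those of Slc7a8, Slc3a2 and Slc1a1 each held the SP1 letters, present in 32.9% of windows. Of the 5 windows of Slc7a7, which overlap in part, the first held the ATF4 letters 141 bases before its start. The second held them at a different site, 243 bases before its start, and the SP1 letters at 221. That SP1 site also lay in the third window, at 244 bases. The ATF4 letters were present in 3.53% of windows. All 8 genes had an entry in the RefSeq promoter table, with 5 windows for Slc7a7, 2 for Slc7a9 and 1 for each of the others. A match describes the letters alone.

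The 3 con libraries stood apart from the other 10. Their totals were 4851239 to 5202146 counts against 7127769 to 8589351, and 70.2%, 73%, 72% and 67.7% of tested genes passed the test (edgeR's quasi-likelihood test, Benjamini-Hochberg adjusted p under 0.05 over 14300 genes) against con in BSF, BSF_C, LSF and DSF, in that order. All 9 enterocyte markers were present in every group, and their levels in CPM (counts scaled to library size after trimmed-mean normalisation) added up to 5970 in con, 12500 in DSF, 13600 in BSF, 14000 in BSF_C and 17100 in LSF. A large part of this was Apoa1, at 5390 in DSF, 6740 in BSF, 7000 in BSF_C and 9110 in LSF. In con the highest of the 9 was Cdh1, at 2020. Against con, 8 of the 9 rose and 1 fell in each group. The 5 crypt markers summed to 3250 in con and to 1570 to 2140 elsewhere, and most of this was Olfm4 (2810 in con, 1300 to 1790 elsewhere). Against con, 1 crypt marker rose in every group, while 3 fell in BSF and BSF_C and 4 in LSF and DSF. The 9 skin keratinocyte markers summed to 624 in con and 4.54 to 5.38 elsewhere. The 8 leukocyte markers, from a type that the sort should remove, summed to 7.28 in con, 195 in LSF, 198 in DSF, 123 in BSF and 138 in BSF_C. The 12 kidney tubule markers summed to 81.5 in con and 67 to 76.7 elsewhere. In con nearly all of that was Slc5a2 (81.3, against 46.2 to 52.9 elsewhere), and without this gene, taken out after its values were seen, the other 11 summed to 0.138 in con, with 10 of them at 0, and to 20.8 to 29.2 elsewhere. Of the 2 markers of the distal small intestine, Fabp6 was at 0 in con, BSF, LSF and DSF, and their sum was at most 0.548 in any group. The part of these values in any difference from con was not tested, and in bulk RNA fewer cells of a type and less RNA per cell cannot be told apart. The 4 comparisons with con also share the same 3 control libraries.

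Against con, 6 of the 8 transporter mRNAs rose in every other group, Slc1a1 fell in every one, and Slc7a8 fell in all but LSF. Called members were thus 8 of 8 in BSF (70.2% of all genes called, 38.3% higher and 31.9% lower), 8 of 8 in BSF_C (73%, 39.8% and 33.2%), 7 of 8 in LSF (72%, 38.9% and 33%) and 8 of 8 in DSF (67.7%, 36.6% and 31.1%), so the counts alone do not set these genes apart. The median log2 change of the 8 was 0.79 in LSF, 0.45 in DSF, 0.37 in BSF and 0.45 in BSF_C, beside 0.10, 0.10, 0.11 and 0.12 over all genes tested. The summed level of the 8 mRNAs was 1398 ± 64.9 CPM in con (SD, n = 3), 2139 ± 27.2 in LSF (n = 3), 1463 ± 13.6 in DSF (n = 2), 1331 ± 17.5 in BSF (n = 2) and 1371 ± 26.0 in BSF_C (n = 3). LSF thus held the highest sum, while the sums of con, BSF, BSF_C and DSF lay close together although single members differed several-fold between con and the rest.

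**Figure D1:**
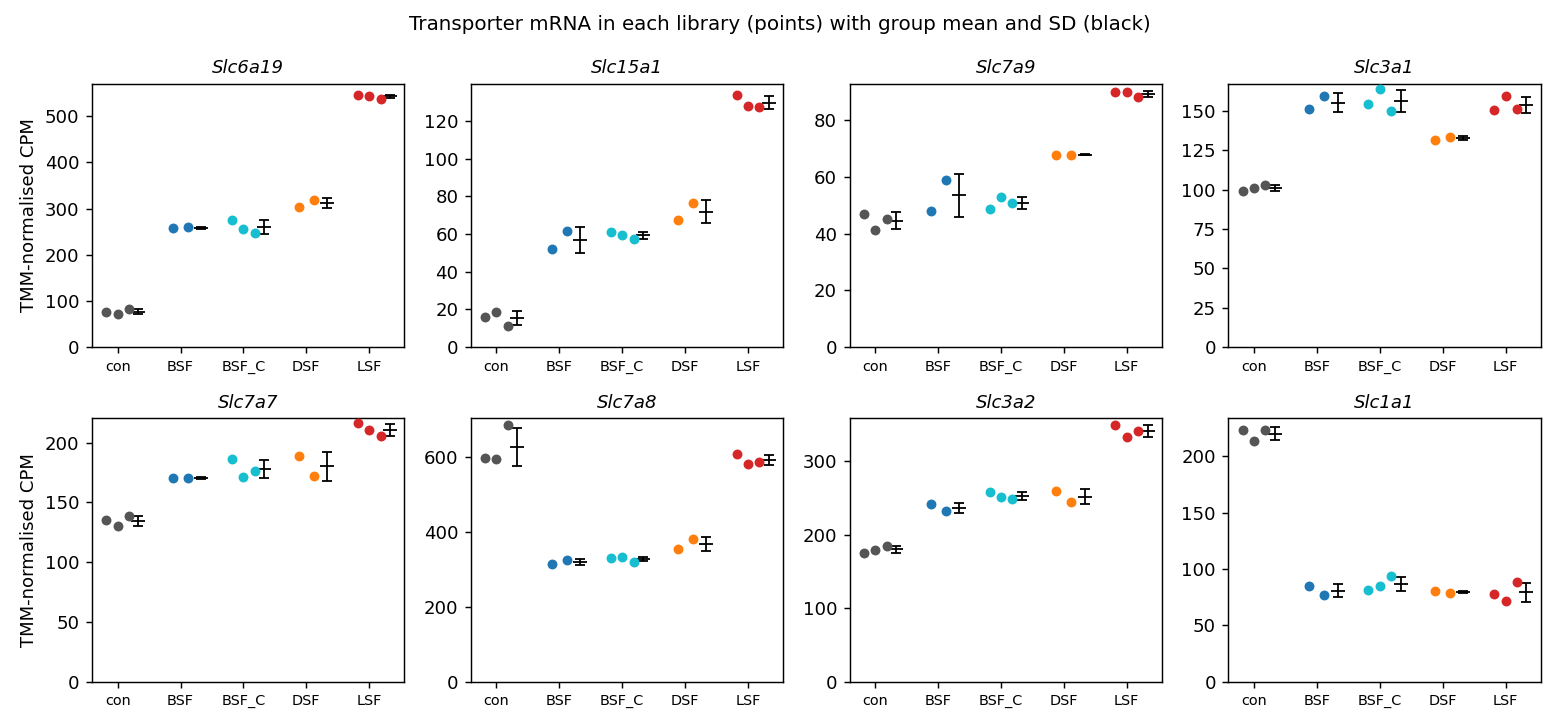
Level of each transporter mRNA (vertical axis, TMM-normalised CPM, starting at 0) in the 13 libraries, grouped along the horizontal axis as con, BSF, BSF_C, DSF and LSF. Points are libraries and black marks the group mean with its SD; LSF is the highest group in the panels of Slc6a19, Slc15a1, Slc7a9, Slc7a7 and Slc3a2, and con the highest in those of Slc7a8 and Slc1a1.

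Slc6a19, the main apical carrier of neutral amino acids (chromosome 13, 73679745 to 73704865, minus strand), was lowest in con and highest in LSF. Its level was 75.8, 71.9 and 82.0 CPM in the con libraries, 275.9, 255.3 and 247.1 in BSF_C, 256.9 and 259.8 in BSF, 303.3 and 318.6 in DSF, and 545.7, 544.7 and 538.2 in LSF. The con and LSF libraries overlapped with no other group, every DSF library lay above every BSF and BSF_C library, and BSF and BSF_C overlapped. The rise over con was 3.38-fold in BSF (log2 change 1.76 ± 0.07, SE, adjusted p = 2.18e-29) and 7.10-fold in LSF (2.83 ± 0.06, adjusted p = 3.21e-41). LSF was also 2.10-fold above BSF (1.07 ± 0.06, adjusted p = 4.13e-21) and 1.75-fold above DSF (0.80 ± 0.06, adjusted p = 2.57e-16).

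Slc15a1, the proton-coupled peptide carrier (chromosome 14, 121459621 to 121505252, minus strand), followed the same order of groups at a lower level. The libraries stood at 16.1, 18.7 and 11.1 CPM in con, 61.2, 59.2 and 57.4 in BSF_C, 52.1 and 61.7 in BSF, 67.5 and 76.3 in DSF, and 133.7, 128.0 and 127.6 in LSF. Again con lay below and LSF above every other library, with BSF and BSF_C overlapping. LSF was 8.41-fold above con (3.07 ± 0.10, adjusted p = 1.55e-32), 2.27-fold above BSF (1.18 ± 0.09, adjusted p = 9.34e-17) and 1.81-fold above DSF (0.85 ± 0.08, adjusted p = 5.44e-12). The log2 ratio of Slc6a19 to Slc15a1 was 2.36 ± 0.49 in con (n = 3), 2.06 ± 0.03 in LSF (n = 3), 2.12 ± 0.07 in DSF (n = 2), 2.19 ± 0.16 in BSF (n = 2) and 2.13 ± 0.04 in BSF_C (n = 3). Across a range of several-fold in both genes this ratio overlapped between groups in 9 of the 10 comparisons. The exception was LSF below BSF_C by 0.06 (exact permutation test, two-sided p = 0.1, the smallest that 3 against 3 libraries can give).

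Slc7a9, the light chain of the cystine and dibasic amino acid exchanger (chromosome 7, 35448796 to 35466036, plus strand), rose mainly in LSF and DSF. Its level was 47.1, 41.2 and 45.1 CPM in con, 48.6, 52.8 and 50.8 in BSF_C, 48.0 and 58.9 in BSF, 67.9 and 67.8 in DSF, and 89.9, 90.1 and 88.1 in LSF. LSF lay above all other libraries and DSF above the remaining 8, while con lay less than 2 CPM below the nearest BSF and BSF_C libraries, which overlapped. LSF was 2.01-fold above con (1.01 ± 0.08, adjusted p = 6.53e-16), 1.66-fold above BSF (0.73 ± 0.08, adjusted p = 4.81e-10) and also above DSF (0.40 ± 0.08, adjusted p = 0.000218). The smaller rises over con in BSF (0.27 ± 0.10, adjusted p = 0.0102) and BSF_C (0.19 ± 0.09, adjusted p = 0.0481) were fragile. The first lost its call without BSF replicate 2 (0.11, adjusted p = 0.458) or con replicate 2 (0.22, adjusted p = 0.055), and the second in 19 of 23 alternative settings, with values of 0.14 to 0.21 in those 19.

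Slc3a1, the heavy chain that pairs with Slc7a9 (chromosome 17, 85028376 to 85064236, plus strand), had a different order, with BSF_C, BSF and LSF at about the same height. Libraries were at 99.3, 101.1 and 103.0 CPM in con, 131.7 and 133.5 in DSF, 150.8, 159.8 and 151.4 in LSF, 151.0 and 159.7 in BSF, and 154.8, 164.2 and 150.0 in BSF_C. Only con and DSF were set off from the rest. The rise over con was 1.54-fold in BSF (0.62 ± 0.07, adjusted p = 1.71e-11) and 1.52-fold in LSF (0.61 ± 0.06, adjusted p = 1.9e-12), and LSF against BSF did not pass the test (-0.01 ± 0.06, adjusted p = 0.905). DSF was below BSF by 0.23 ± 0.07 on the log2 scale (adjusted p = 0.024), a call that was lost when any of the 4 libraries was left out. Exons of Slc3a1 overlap those of Prepl on the other strand over 601 bases, and since the strand setting of the counting is not given, reads there cannot be told apart; Prepl was at 150.4 CPM in con and 151.1 to 167.3 elsewhere.

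Because both chains are needed for 1 carrier, their ratio was taken in each library. The log2 ratio of Slc7a9 to Slc3a1 was -1.19 ± 0.11 in con (n = 3), -1.54 ± 0.15 in BSF (n = 2), -1.62 ± 0.06 in BSF_C (n = 3), -0.97 ± 0.02 in DSF (n = 2) and -0.78 ± 0.04 in LSF (n = 3). LSF libraries did not overlap with those of any other group, DSF lay next, and BSF and BSF_C overlapped at the bottom. The difference of LSF from BSF_C was 0.84 (exact permutation test, two-sided p = 0.1, the smallest this design allows), as was p for LSF against con (0.40), BSF (0.76) and DSF (0.18). A library's ratio does not depend on the scaling between libraries. Over the 50 ratio comparisons made here, counting 5 pairs of genes, the lowest Benjamini-Hochberg adjusted p of these permutation tests was 0.179.

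**Figure D2:**
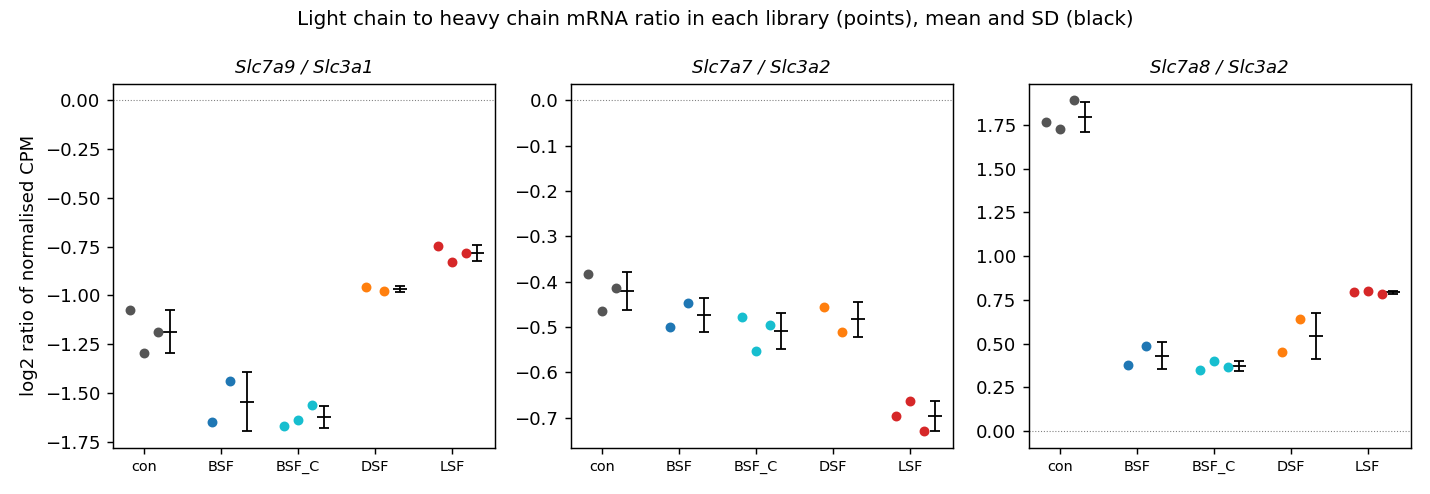
Log2 ratio of light chain to heavy chain mRNA (vertical axis, ratio of normalised CPM) in each library by group, with black marks for the mean and SD. The ratio of Slc7a9 to Slc3a1 is highest in LSF at -0.78, and that of Slc7a8 to Slc3a2 highest in con at 1.79.

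Of the basolateral set, the shared heavy chain Slc3a2 (chromosome 19, 8706882 to 8723369, minus strand) rose in all 4 groups and most in LSF. It stood at 175.7, 179.9 and 184.5 CPM in con, 258.8, 251.7 and 248.6 in BSF_C, 241.6 and 231.9 in BSF, 259.2 and 244.6 in DSF, and 349.8, 333.7 and 341.0 in LSF. The con libraries were lowest, LSF highest, and DSF overlapped with BSF_C but not with BSF. LSF was 1.90-fold above con (0.92 ± 0.06, adjusted p = 1.68e-21) and 1.44-fold above BSF (0.53 ± 0.06, adjusted p = 2.17e-10), and DSF against BSF did not pass the test (0.09 ± 0.07, adjusted p = 0.41).

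Slc7a7, the light chain that exports dibasic amino acids (chromosome 14, 54369442 to 54417780, minus strand), changed least of the genes that rose against con in LSF apart from Slc3a1. Its level was 134.8, 130.4 and 138.4 CPM in con, 185.8, 171.5 and 176.2 in BSF_C, 170.7 and 170.0 in BSF, 188.9 and 171.7 in DSF, and 215.9, 210.6 and 205.6 in LSF. LSF was above and con below all other libraries, and the other 3 groups lay between 170.0 and 188.9 CPM. LSF was 1.57-fold above con (0.65 ± 0.06, adjusted p = 4.15e-14) and 1.24-fold above BSF (0.31 ± 0.06, adjusted p = 0.000135). The difference from DSF (0.23 ± 0.06, adjusted p = 0.00766) lost its call without DSF library S3 (0.16, adjusted p = 0.275). Exons of Slc7a7 overlap those of Oxa1l on the other strand over 232 bases, with Oxa1l at 108.8 CPM in con and 134.9 in LSF.

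Slc7a8, the light chain for neutral amino acid exchange (chromosome 14, 54722209 to 54781946, minus strand), was as high in LSF as in con within the spread of the libraries and lower in the other 3 groups. Its libraries were at 597.9, 594.9 and 684.6 CPM in con, 606.8, 581.4 and 586.6 in LSF, 354.6 and 380.9 in DSF, 313.7 and 325.1 in BSF, and 329.9, 332.7 and 320.5 in BSF_C. Thus con and LSF overlapped at the top, DSF lay in the middle and BSF and BSF_C overlapped at the bottom. Slc7a8 fell to 0.511 of the con level in BSF (log2 change -0.97 ± 0.06, adjusted p = 1.65e-20), and it was 1.85-fold higher in LSF than in BSF (0.89 ± 0.06, adjusted p = 5.84e-18) and 1.61-fold higher than in DSF (0.69 ± 0.06, adjusted p = 8.14e-14). LSF against con did not pass the test (-0.08 ± 0.05, adjusted p = 0.162), but did without con replicate 2 (-0.12, adjusted p = 0.0409). Set against its heavy chain, the log2 ratio of Slc7a8 to Slc3a2 was 1.79 ± 0.09 in con (n = 3), 0.43 ± 0.08 in BSF (n = 2), 0.37 ± 0.03 in BSF_C (n = 3), 0.55 ± 0.13 in DSF (n = 2) and 0.79 ± 0.01 in LSF (n = 3). LSF and con thus overlapped in the level of Slc7a8, but LSF lay 1.00 below con in the ratio with no overlap (exact permutation test, two-sided p = 0.1, the smallest possible). The ratio of the other light chain, Slc7a7, to Slc3a2 went from -0.42 ± 0.04 in con to -0.70 ± 0.03 in LSF, the lowest group.

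Slc1a1, the carrier of glutamate and aspartate (chromosome 19, 28835049 to 28913960, plus strand), was high in con and level across the other groups. It stood at 223.6, 213.8 and 223.7 CPM in con, 77.5, 72.1 and 88.1 in LSF, 80.1 and 79.0 in DSF, 84.8 and 76.6 in BSF, and 81.3, 85.0 and 93.9 in BSF_C. Every con library was above every other one, and the remaining groups overlapped except BSF_C, which lay above both DSF libraries. Slc1a1 fell against con by 1.48 ± 0.07 in LSF (adjusted p = 1.26e-26), by 1.47 ± 0.08 in DSF (adjusted p = 1.03e-23), by 1.45 ± 0.08 in BSF (adjusted p = 1.06e-23) and by 1.35 ± 0.07 in BSF_C (adjusted p = 5.33e-25), all on the log2 scale. It was the 1 member called in none of the 6 comparisons without con; LSF against BSF gave -0.02 ± 0.08 (adjusted p = 0.86) and LSF against DSF -0.01 ± 0.08 (adjusted p = 0.972). LSF against BSF_C gave -0.13 ± 0.07 (adjusted p = 0.145) and passed the test with library totals as the scaling (-0.20, adjusted p = 0.0214) or without LSF replicate 3 (-0.21, adjusted p = 0.0344). Exons of Slc1a1 overlap those of 4430402I18Rik on the other strand over 2631 bases, and that gene was also lower outside con, at 349.7 CPM in con and 187.0 to 206.2 elsewhere, so the share of each in these reads cannot be told apart.

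Levels of different genes were compared per kilobase of exon. In con the order was Slc7a8 (125.0 CPM per kb), Slc3a2 (51.0), Slc3a1 (44.5), Slc7a7 (40.6), Slc1a1 (26.7), Slc7a9 (16.6), Slc6a19 (15.3) and Slc15a1 (3.13). In LSF it was Slc7a8 (118.2), Slc6a19 (108.4), Slc3a2 (96.8), Slc3a1 (67.8), Slc7a7 (63.6), Slc7a9 (33.4), Slc15a1 (26.6) and Slc1a1 (9.59). Slc6a19 thus moved from seventh to second place, and Slc1a1 went to the last.

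**Figure D3:**
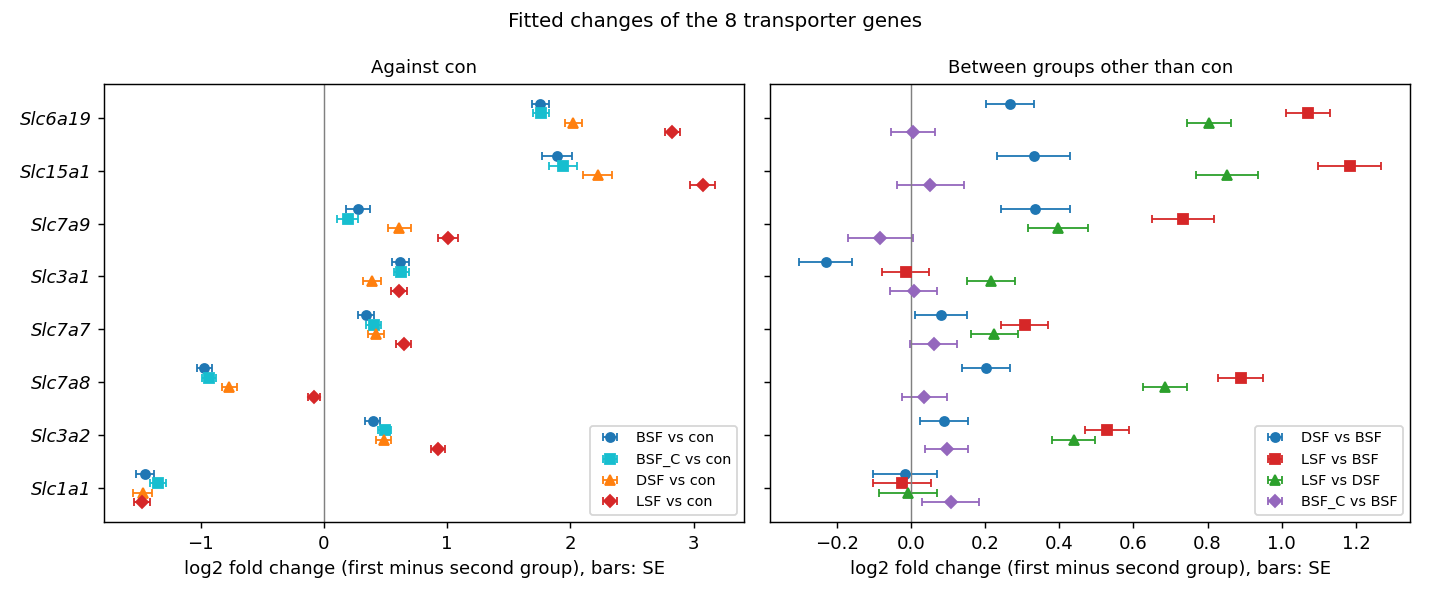
Log2 fold change (horizontal axis, first group minus second, bars are SE) of each of the 8 genes, against con on the left and between groups other than con on the right. On the left Slc1a1 is near -1.45 in all 4 comparisons and Slc7a8 near 0 in LSF alone; on the right LSF against BSF and LSF against DSF are positive for Slc6a19, Slc15a1, Slc7a9, Slc7a7, Slc7a8 and Slc3a2.

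The comparisons between groups other than con do not use the level in con. The con libraries were still part of the fit, its filter, its scaling and its estimate of spread. In LSF against BSF, 6 of 8 members rose and 0 fell, where 29.3% of tested genes passed the test, 15.9% higher and 13.4% lower. The median log2 difference of the members was 0.63, beside -0.01 over all genes. In LSF against BSF_C the same 6 genes rose and 0 fell (32.7% of genes called, 17.1% higher and 15.6% lower), with differences of 1.07 ± 0.05 for Slc6a19 (adjusted p = 8.4e-24) and 0.85 ± 0.05 for Slc7a8 (adjusted p = 1.01e-19). LSF against DSF gave 7 higher and 0 lower (15.9% called, 8.97% higher and 6.91% lower), with Slc3a1 as the seventh (0.22 ± 0.07, adjusted p = 0.0148), a call lost in 5 of 22 alternatives, among them leaving out LSF replicate 2, DSF library S2 or DSF library S3. All 7 of these genes also had every LSF library above every DSF library, as did 22.7% of the genes tested. With library totals as the scaling, 37.1% in place of 54.2% of the genes called in LSF against BSF were higher, and 38.0% in place of 56.5% in LSF against DSF; the 6 members above were higher under this scaling too, with 0.99 for Slc6a19 against BSF.

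Markers of other states of the epithelium moved with LSF as well. In LSF against BSF, 4 of 9 enterocyte markers rose and 0 fell, with a median log2 difference of -0.01, and 3 of 6 villus tip markers rose and 0 fell, while 2 of 3 villus base, 3 of 5 crypt and 4 of 5 proliferation markers fell and 0 rose. In LSF against DSF, 5 enterocyte markers rose and 3 fell, 3 villus tip markers rose and 0 fell, 1 villus base marker rose and 2 fell, and 3 crypt and 4 proliferation markers fell. In LSF against BSF_C, 4 enterocyte markers rose and 1 fell. The villus tip sum was 642 CPM in LSF against 464 in BSF, 477 in BSF_C and 428 in DSF, and the proliferation sum 387 against 581, 550 and 512. Of the 8 leukocyte markers, 5 rose in LSF against BSF and 0 were called in LSF against DSF, with sums of 195 CPM in LSF and 198 in DSF. All 6 fibroblast markers rose in LSF against BSF and 1 rose in LSF against DSF, with sums of 138 CPM in LSF, 122 in DSF and 50.8 in BSF. Of the 5 heart muscle markers 4 rose in LSF against BSF and 0 were called in LSF against DSF, with sums of 247, 247 and 86.7. The part of these markers, epithelial or not, in the rise of the transporters was not tested.

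**Figure D4:**
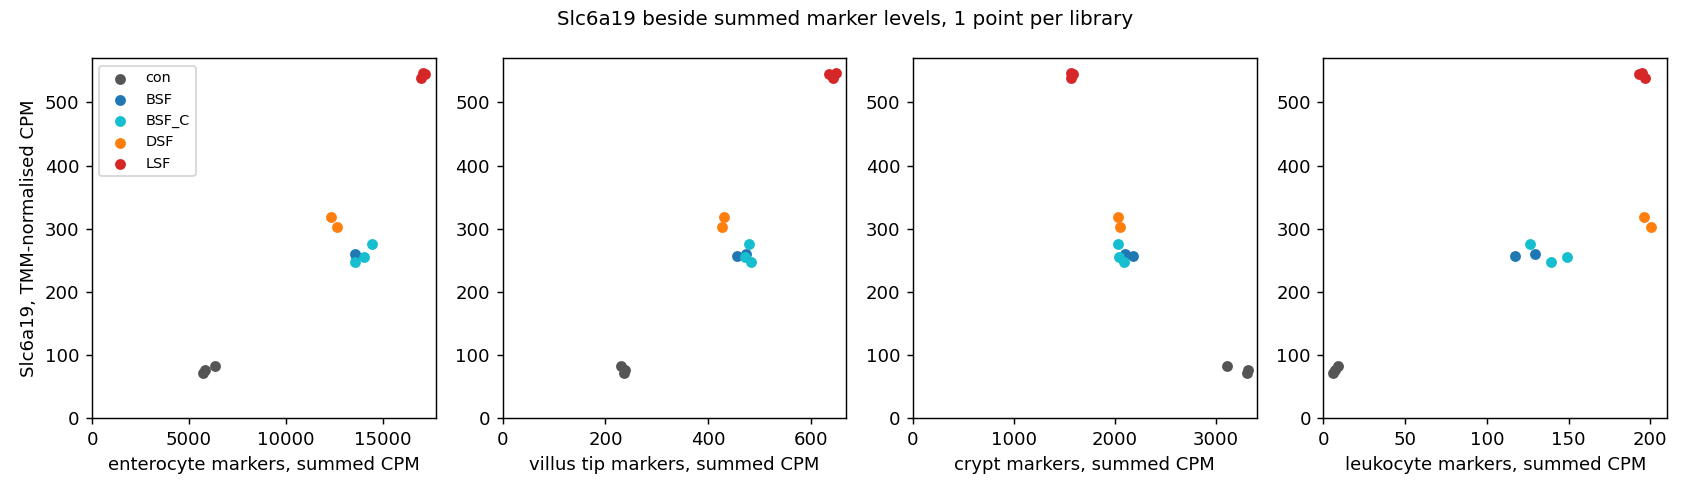
Slc6a19 (vertical axis, TMM-normalised CPM) beside the summed CPM of enterocyte, villus tip, crypt and leukocyte markers (horizontal axes), 1 point per library, coloured by group. The 3 LSF libraries sit at 538 to 546 CPM with the highest enterocyte and villus tip sums and the lowest crypt sum, while LSF and DSF share the same leukocyte range. In LSF the largest single parts were Apoa1 in the enterocyte sum (mean 9110 CPM) and Olfm4 in the crypt sum (mean 1300 CPM).

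DSF against BSF gave smaller differences, with 4 members higher and 1 lower (12% of genes called, 6.26% higher and 5.77% lower). Slc6a19 was higher by 0.27 ± 0.07 (adjusted p = 0.0032), Slc15a1 by 0.33 ± 0.10 (adjusted p = 0.0175), Slc7a9 by 0.34 ± 0.09 (adjusted p = 0.0112) and Slc7a8 by 0.20 ± 0.07 (adjusted p = 0.0311), and Slc3a1 was the gene that was lower. With 2 libraries on each side these calls were unstable. Without DSF library S3, 0 of 8 members and 919 of the 14300 genes passed the test, without DSF library S2 2 members and 798 genes, without BSF replicate 1 1 member and 920 genes, and without BSF replicate 2 3 members and 876 genes, against 1720 genes with all libraries. The differences themselves kept their sign, with 0.23 to 0.30 for Slc6a19, 0.22 to 0.46 for Slc15a1, 0.20 to 0.50 for Slc7a9, 0.15 to 0.25 for Slc7a8 and -0.27 to -0.19 for Slc3a1. In DSF against BSF_C, 3 members were higher and 1 lower (11.9% called, 5.99% higher and 5.87% lower), namely Slc6a19 (0.26, adjusted p = 0.00124), Slc15a1 (0.28, adjusted p = 0.0278), Slc7a9 (0.42, adjusted p = 0.000299) and, lower, Slc3a1 (-0.24, adjusted p = 0.00844). Slc7a8 was near the threshold (0.17, adjusted p = 0.0558) and passed the test in 8 of 22 alternatives, among them limma-voom and the fit without con. These calls were unstable too. Without BSF_C replicate 2, Slc15a1 (0.28, adjusted p = 0.0723) and Slc3a1 (-0.20, adjusted p = 0.0725) lost their edgeR calls. Without DSF library S3, which leaves 1 library in that group, the differences were 0.23 for Slc6a19, 0.19 for Slc15a1 and -0.24 for Slc3a1.

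BSF_C and BSF differed in 0 of 8 members, with 0.133% of all genes called. The fitted log2 differences ran from -0.08 for Slc7a9 to 0.11 ± 0.08 for Slc1a1, each with an adjusted p of 1 by edgeR. At an unadjusted p under 0.05, 0 of the 8 passed (lowest 0.106, Slc3a2), and DESeq2 and limma-voom called 0. A p above the threshold does not show that the levels are the same.

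Outside the 8, the second list held 34 further amino acid and peptide transporters, of which 28 were tested, and it did not move in 1 direction. Against con, 10 rose and 13 fell in LSF and 9 rose and 11 fell in BSF. Over all genes tested, 38.9% rose and 33% fell in LSF, and 38.3% rose and 31.9% fell in BSF. In LSF against BSF 5 rose and 5 fell (15.9% and 13.4% of all genes), and in LSF against DSF 6 rose and 2 fell (8.97% and 6.91%). The median log2 change in LSF against con was -0.13, beside 0.79 for the 8 genes above and 0.10 for all genes.

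Slc6a20a, an apical sodium-coupled carrier of proline and other imino acids on chromosome 9 (123634770 to 123678885), was also highest in LSF and lowest in con. It was at 89.4, 86.7 and 97.4 CPM in con, 226.9, 208.1 and 231.4 in BSF_C, 214.8 and 240.9 in BSF, 197.4 and 230.4 in DSF, and 454.8, 446.5 and 443.4 in LSF. The LSF libraries were above all others, and here DSF overlapped with BSF and BSF_C. LSF exceeded con by 2.30 ± 0.07 (adjusted p = 7.51e-36), BSF by 0.97 ± 0.07 (adjusted p = 4.32e-18) and DSF by 1.07 ± 0.07 (adjusted p = 2.26e-19). Slc16a10, a basolateral carrier of aromatic amino acids, was at 203.6 ± 15.2 CPM in con (n = 3), 290.1 ± 5.1 in BSF (n = 2), 284.1 ± 2.2 in DSF (n = 2) and 423.8 ± 8.6 in LSF (n = 3), which was 0.55 ± 0.06 above BSF (adjusted p = 8.39e-11).

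Other members of the list were highest in con. Slc7a1, the widely expressed carrier of cationic amino acids, fell from 658.2 ± 52.2 CPM in con (n = 3) to 177.2 ± 9.8 in LSF (n = 3), 193.9 ± 1.4 in DSF (n = 2), 209.3 ± 8.7 in BSF (n = 2) and 207.7 ± 4.8 in BSF_C (n = 3), a change of -1.89 ± 0.06 in LSF (adjusted p = 8.16e-35). Slc7a5, the other light chain that pairs with Slc3a2 for large neutral amino acids, was at 68.8 CPM in con and 31.2 to 32.98 elsewhere. Among the glutamate carriers best known from glia, Slc1a3 fell from 35.0 CPM in con to 22.1 in BSF and 13.7 in LSF, while Slc1a2 rose from 2.26 to 19.0 in BSF and 8.67 in LSF. The 7 neuron and glia markers summed to 246 CPM in con, 211 in BSF and 154 in LSF, of which Mbp alone gave 236, 143 and 120. Taken singly, 5 of the 7 rose and 1 fell against con in BSF and likewise in LSF, while 5 fell and 0 rose in LSF against BSF. The part of these markers in the values of Slc1a2 and Slc1a3 was not tested.

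Slc6a18, which lies next to Slc6a19 on chromosome 13 (73661752 to 73678023) and is best known as a kidney carrier of neutral amino acids, had 0 counts in the 3 con libraries but 92 in LSF, 62 in DSF, 48 in BSF and 147 in BSF_C. Against the floor of 3 counts over the con group (0.214 CPM) that is at least 18.2-fold higher in LSF, 18.9-fold in DSF, 13.6-fold in BSF and 27.6-fold in BSF_C. Within BSF_C it was at 2.33, 7.26 and 8.08 CPM, in libraries where the 12 kidney tubule markers summed to 56.75, 81.47 and 91.82 CPM and the 11 without Slc5a2 to 10.2, 35.8 and 41.5. Kidney tubule also expresses Slc6a19, Slc7a9 and Slc3a1, whose BSF_C levels are given above, and the part of such RNA in their levels was not tested. Slc6a14, a carrier of broad substrate range named here after its values were seen, had 46 counts in con and 0 in each of the other groups, at least 25.9-fold lower in LSF.

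**Figure D5:**
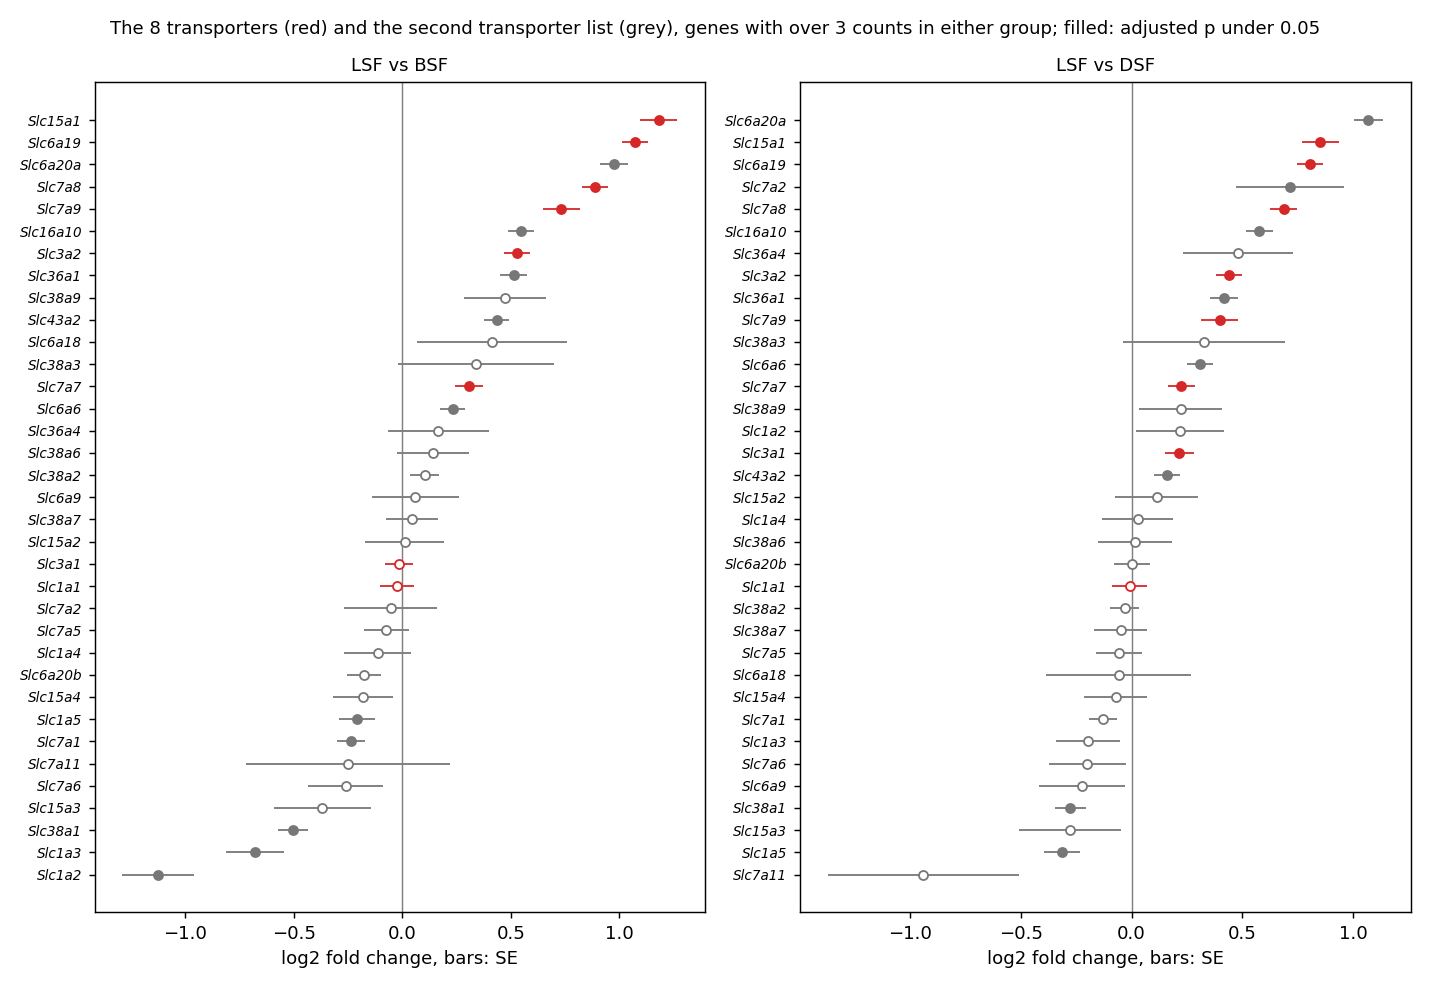
Log2 fold change (horizontal axis, bars are SE) of the 8 transporters in red and the further transporters in grey, for LSF against BSF on the left and LSF against DSF on the right, leaving out genes with 3 counts or fewer in both groups. Filled points passed the test; Slc15a1, Slc6a19 and Slc6a20a lead both panels, and the lowest filled point on the left is Slc1a2 at -1.12.

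Among genes of the scaffold and the proton supply of apical uptake, the scaffold Slc9a3r1 rose from 521.0 ± 49.5 CPM in con (n = 3) to 852.0 ± 37.6 in BSF (n = 2) and 1275 ± 45.4 in LSF (n = 3), which was 0.58 ± 0.06 above BSF (adjusted p = 1.04e-11). Slc9a3, the apical sodium-proton exchanger that supplies protons for peptide uptake, went the other way, from 769.8 ± 56.5 CPM in con (n = 3) to 437.1 ± 9.0 in BSF (n = 2) and 423.4 ± 8.2 in LSF (n = 3), with DSF at 512.2 ± 18.6 (n = 2). Its change was -0.86 ± 0.05 in LSF against con (adjusted p = 1.48e-21), opposite to that of Slc15a1, and LSF against BSF did not pass the test (-0.05 ± 0.06, adjusted p = 0.592).

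The peptidases that release the substrates of these carriers were described as a further list. Of 15 brush border and cytosolic peptidase genes, 15 rose in LSF against con, 14 rose and 0 fell in LSF against BSF, 13 rose and 0 fell in LSF against DSF, and 3 rose and 1 fell in DSF against BSF. Over all genes tested, 38.9%, 15.9%, 8.97% and 6.26% rose in these comparisons, in that order, and 33%, 13.4%, 6.91% and 5.77% fell. The median log2 difference of the peptidases was 1.78 in LSF against con and 0.48 in LSF against BSF, beside 0.10 and -0.01 over all genes. Tmprss15, enteropeptidase, which activates trypsinogen, was at 0.843 ± 0.53 CPM in con (n = 3), 9.79 ± 0.33 in BSF (n = 2), 10.3 ± 0.84 in DSF (n = 2) and 23.4 ± 3.2 in LSF (n = 3), a difference of 1.25 ± 0.16 between LSF and BSF (adjusted p = 1.4e-08). Lap3, a cytosolic leucine aminopeptidase, was at 57.8 ± 4.9 CPM in con, 58.3 ± 2.0 in BSF, 65.8 ± 3.3 in DSF and 108.1 ± 4.1 in LSF, so that it rose in LSF (0.89 ± 0.08 against BSF, adjusted p = 1.55e-13) while BSF against con did not pass the test (0.02 ± 0.09, adjusted p = 0.884). Ace, a dipeptidyl carboxypeptidase of the brush border, rose from 92.1 ± 14.5 CPM in con to 613.1 ± 3.9 in BSF, 509.1 ± 7.3 in DSF and 993.3 ± 14.0 in LSF, the group highest for all 3 of these genes. Anpep, aminopeptidase N, rose by 0.40 ± 0.05 in LSF against BSF (adjusted p = 6.13e-09), to 3406 CPM.

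Likeness to a member was measured as the root mean square difference of the 5 centred group means of log2 CPM, over 11593 genes, and genes are named for the 4 members whose group means spanned at least 1 on the log2 scale. The genes nearest to Slc6a19 were Ephx1 (0.0656), Plekho2 (0.106) and Pink1 (0.123), with Slc15a1 at 0.0938, and those nearest to Slc15a1 were Plekho2 (0.0775), Ephx1 (0.112) and Uap1l1 (0.126). Only 1 gene outside the 8 was thus closer to Slc6a19 than Slc15a1 was, and only 1 closer to Slc15a1 than Slc6a19. For Slc7a9 the nearest were Man2b2 (0.0286), Ppp1r14c (0.0444) and Gm21970 (0.0556), and its nearest member was Slc3a2 at 0.155, with 96 other genes closer than that. For Slc1a1 they were Pkp1 (0.0201), Fry (0.0346) and Vgll4 (0.0394). Pkp1, a desmosome plaque protein, was at 171.8 CPM in con and 63.2 to 67.8 elsewhere. Among members with a smaller span, Slc3a2 and Slc7a7 lay 0.0945 apart, with 72 other genes closer to Slc3a2 and 316 closer to Slc7a7. These values rest on 5 group means and describe them. Some of the genes named had few counts over the con libraries, with 27 for Ephx1, 36 for Plekho2 and 48 for Ppp1r14c. Pink1 and Uap1l1 had 434 and 165 there. Distances of the genes with few counts are less exact than the digits given.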

How the data were processed

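The authors deposited raw counts per gene symbol, whole numbers for 13 libraries. The submitters' processing notes name STAR 2.7.2e, cutadapt 2.9, FastQC 0.11.8 and DESeq2 1.32.0, and the builds GRCm38 and mm10. Annotation, strand and the treatment of multiply mapped reads are not given in the sources used here. One edgeR 4.0.16 fit (R 4.3.3; TMM scaling, filterByExpr, quasi-likelihood, a term for group alone, 8 residual degrees of freedom) covered all groups and kept 14300 genes with 99.91% of counts, at a common biological coefficient of variation of 4.87%; p-values were adjusted by Benjamini-Hochberg over them. SE is the log2 change divided by the square root of F. Levels are TMM-normalised CPM. Exon lengths and coordinates are GENCODE M21 on GRCm38. Ratios were compared by exact permutation. The fit was also run on simulated data, whose settings and outcome are not given here. No conclusion about the real libraries, con included, is drawn from that run.

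Groups came from the labels. The 2 DSF columns carry the numbers S2 and S3, which do not tell which labelled replicate each is, and were used as a group. Replicates of a group differed by more than sampling noise (chi-square per degree of freedom 1.37 to 3.93 in 11 pairs). Members and lists were chosen with earlier results of these data known. Named were the 8 members, Slc7a5, and from each list up to 4 called genes of at least 5 CPM with the largest change in LSF against con and likewise against BSF. Some genes that this rule names are not reported here. Alternatives were other scalings and filters, DESeq2 1.42.0, limma-voom (limma 3.58.1), thinned libraries, genes of other cell types left out, only the 2 groups compared, a replicate block and leaving out each library; leaving out con and an unblocked fit over the same libraries were added after the data were seen.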

Additional observations from a re-analysis of the deposited data

How the results depend on the processing

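Over 80 member results (8 genes in 10 comparisons) and 1824 recomputed values, 1761 kept direction and call, 52 lost the call, 11 gained one and 0 called values changed sign; 65 of the 80 results were the same in each alternative run. Library totals as the scaling moved the median log2 change of all genes from 0.11 to 0.29 in BSF against con, from 0.12 to 0.28 in BSF_C, from 0.10 to 0.20 in LSF and from 0.10 to 0.26 in DSF, and the share of called genes that were higher in LSF against BSF_C from 52.4% to 36.7%. The number of genes called in BSF_C against BSF, 19 in the reported fit, was 2 with DESeq2, 4 with limma-voom, 30 without a filter, 32 with only the 2 groups and 29 without con, and 12 to 27 on leaving out 1 library. In DSF against BSF it was 1720, then 1109 with DESeq2, 1116 with thinned libraries and 798 to 2329 on leaving out 1 library, and the members called, 5 as reported, were 2 with thinned libraries and 0 to 5 on leaving out 1 library. For DSF against BSF_C the ranges on leaving out 1 library were 848 to 2197 genes (1696 reported) and 1 to 5 members (4 reported), for LSF against BSF 2557 to 4857 genes (4190 reported) and for LSF against DSF 1288 to 2776 genes (2271 reported), the lowest without a library of a group of 2. Where a group was left with 1 library, it was assumed to vary like the others. The cause of these shifts was not tested beyond the smaller number of libraries. Of the calls in DSF against BSF, Slc15a1 (0.31, edgeR adjusted p = 0.0769), Slc3a1 and Slc7a8 were lost with thinned libraries. The same calls were also lost on leaving out single libraries at full depth. The part of depth was therefore not separated from that of the number of libraries.

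No pairing of the libraries by replicate number was seen: deviations from the group means correlated at -0.33 to 0.108 for the 15 pairs of the same number and at -0.237 to 0.299 for 30 pairs of different numbers. Centring on the means of such small groups ties these correlations together, so they cannot exclude a pairing. With the replicate number as a block, 9729 genes were called in BSF against con, 10284 in BSF_C against con, 10136 in LSF against con, 18 in BSF_C against BSF, 3598 in LSF against BSF and 4370 in LSF against BSF_C, where the unblocked fit over the same libraries gave 9973, 10347, 10214, 18, 4063 and 4570. Members called in BSF_C against con were 7 with the block and 7 without it over those libraries. Comparisons with DSF could not be blocked because its columns cannot be assigned to the replicate numbers of the labels.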

Other observations

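Of 10 transcription factors of enterocytes, 2 rose and 7 fell in LSF against con, and 4 rose and 1 fell in LSF against BSF. The shares over all genes tested were 38.9% and 33% against con and 15.9% and 13.4% against BSF. Maf, a factor of mature enterocytes, was at 92.7 ± 5.2 CPM in con (n = 3), 164.0 ± 5.6 in BSF (n = 2), 165.0 ± 1.0 in BSF_C (n = 3), 249.4 ± 7.3 in DSF (n = 2) and 288.5 ± 4.1 in LSF (n = 3). The groups outside BSF and BSF_C did not overlap, and LSF exceeded BSF by 0.81 ± 0.06 (edgeR, adjusted p = 5.33e-16) and DSF exceeded BSF by 0.60 ± 0.07 (adjusted p = 5.85e-10). The difference of LSF from DSF (0.21 ± 0.06, adjusted p = 0.00863) lost its call without DSF library S3 (0.18, adjusted p = 0.169). The HNF4 paralogs went opposite ways against con: Hnf4a was at 3393 ± 271 CPM in con (n = 3), 1582 ± 20.1 in BSF (n = 2) and 1346 ± 26.0 in LSF (n = 3), and Hnf4g at 125.8 ± 19.95, 247.7 ± 2.2 and 305.6 ± 18.2. In LSF against BSF, Hnf4a fell by 0.23 ± 0.05 (adjusted p = 0.000431) and Hnf4g rose by 0.30 ± 0.07 (adjusted p = 0.000594).

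Genes of the ATF4 amino acid response did not move in 1 direction. Of 15 tested, 4 rose and 8 fell in LSF against con, 1 rose and 3 fell in LSF against BSF, and 1 rose and 1 fell in LSF against DSF. Over all genes tested, 38.9% rose and 33% fell against con, 15.9% and 13.4% against BSF, and 8.97% and 6.91% against DSF. Trib3, a pseudokinase induced by ATF4, was at 11.9 ± 1.7 CPM in LSF (n = 3) and 6.59 ± 0.96 in BSF (n = 2), a rise of 0.87 ± 0.21 (edgeR, adjusted p = 0.000977) that lost its call without BSF replicate 2 (0.71, adjusted p = 0.0551). The mitochondrial folate enzymes Mthfd2 and Shmt2 fell in LSF against BSF by 0.84 ± 0.14 (adjusted p = 4.69e-06) and by 0.62 ± 0.08 (adjusted p = 3.46e-08), from 22.0 to 12.2 and from 87.3 to 56.6 CPM. Shmt2 was also lower in LSF than in DSF (-0.58 ± 0.08, adjusted p = 3.52e-07), where DSF stood at 84.5 CPM.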
